A study of Macaca mulatta with 28 samples.

Results

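The genes described here are 6 serotonin receptors (HTR1A, HTR1B, HTR2A, HTR2C, HTR4 and HTR7) and 3 genes that mark the neurons making serotonin (TPH2, SLC6A4 and FEV), measured in the ventral tegmental area (VTA), a midbrain region rich in dopamine neurons, of rhesus macaques. They were taken by gene symbol from the 16885 genes listed, where all 9 were found. A minimum of 5 counts in at least 3 animals was met by 13769 of the genes and by 6 of the 9, namely HTR1A, HTR1B, HTR2A, HTR2C, HTR7 and TPH2. The other 3, HTR4, SLC6A4 and FEV, fell below it and entered no test, so their counts are given animal by animal.

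Serotonin neurons have their cell bodies in the raphe nuclei of the brainstem, the most rostral of which borders the midbrain tegmentum, and their axons run into the VTA. A serotonin neuron is recognised by TPH2, the neuronal enzyme that limits the rate of serotonin synthesis, by SLC6A4, the transporter that returns serotonin to the terminal, and by FEV, a transcription factor of the ETS family that maintains both. The mRNAs of all 3 lie mainly in the cell body, so axons that reach the VTA from the raphe bring little of them, whereas the receptor mRNAs are made by whichever cells of the VTA respond to serotonin. HTR1A and HTR1B couple to inhibitory G proteins and also serve as autoreceptors, HTR2A and HTR2C raise intracellular calcium, and HTR4 and HTR7 raise cyclic AMP.

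The animals were 28 male macaques aged 7 to 8.3 years, 17 of which had drunk 4% (w/v) ethanol by choice from a panel in the home cage for 12 months, 22 hours a day, followed by 3 abstinence periods of 1 month each with 2 renewed access periods of 3 months between them, and 11 of which were controls, yoked for calories or kept under the same housing. Tissue was taken after the final abstinence of 30 days, and 1 library was sequenced from each VTA punch. By drinking category the labels give 1 low, 2 binge, 5 heavy and 9 very heavy drinkers. The study drew on 2 cohorts, with 8 drinkers beside 8 controls in cohort 1 and 9 drinkers beside 3 controls in cohort 2, and animals are named below by category and number.

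Values are normalized CPM, that is, the count of 1 transcript as a share of the library total after TMM scaling. Between 12303914 and 27338669 counts were assigned per animal, and mitochondrial transcripts took 36.4% to 60.6% of them. The dopamine neuron markers that define the VTA varied widely between punches, from 6.35 to 833 CPM for the dopamine transporter SLC6A3 and from 5.58 to 826 CPM for tyrosine hydroxylase TH, with low and high punches among drinkers and controls alike. In bulk tissue of this kind, fewer cells of a type and less RNA per cell cannot be told apart.

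Of the member receptors, HTR2A, HTR7, HTR1B and HTR1A were counted in every animal. Over the 28 animals HTR2A lay between 92 and 320 counts, HTR7 between 33 and 288, HTR1B between 25 and 129 and HTR1A between 2 and 96. Per kilobase of the longest RefSeq transcript, the median level was 1.25 CPM for HTR2A, 0.968 for HTR1A, 0.712 for HTR7 and 0.569 for HTR1B. Without division by length the medians were 7.33 CPM for HTR2A, 3.84 for HTR7, 2.94 for HTR1B and 1.81 for HTR1A, so the place of HTR1A rests on its RefSeq length of 1875 bases, against 5177 for HTR1B, and these need not be the lengths of the Ensembl transcripts counted. The order per kilobase did not hold in each animal, as HTR2A exceeded HTR1A in 17 of 28 and HTR7 exceeded HTR1B in 18 of 28. HTR2C, HTR4, SLC6A4 and FEV had a median of 0. Between the lowest and the highest animal, HTR2A differed 2.98-fold, HTR1B 4.05-fold and HTR7 7.18-fold. The lowest HTR1A value rests on 2 counts, so its spread is given as a coefficient of variation, which was 61.3%, against 33.8% for HTR2A, 38.9% for HTR1B and 45.8% for HTR7.

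HTR1A, whose gene consists of a single exon in RefSeq (chromosome 6, 62470874 to 62472748 of Mmul_10), had its lowest levels in low 1 (0.106 CPM from 2 counts), heavy 2 (0.160 CPM from 4 counts) and control 5 (0.395 CPM from 9 counts). Controls ran from 0.395 to 4.13 CPM with a median of 1.46, heavy drinkers had 0.160, 1.22, 1.38, 1.83 and 3.76 CPM, and very heavy drinkers ran from 1.17 to 4.04 CPM with a median of 2.71. Every category with more than 1 animal overlapped the controls. Drinkers averaged 2.06 ± 1.19 CPM (SD, n = 17), controls 2.03 ± 1.42 (SD, n = 11), and the log2 fold change was 0.02 (standard error 0.44, edgeR adjusted p = 1.0).

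HTR1B (chromosome 4, 95570257 to 95575433) ran from 1.45 to 5.39 CPM in controls (median 3.57) and from 1.61 to 3.75 CPM in very heavy drinkers (median 2.10). Heavy drinkers had 2.49, 2.92, 2.96, 4.39 and 4.90 CPM, and the low drinker had the least of all animals at 1.33. The very heavy drinkers thus filled the lower part of the control range without leaving it. Drinkers averaged 2.83 ± 1.05 CPM (SD, n = 17), controls 3.28 ± 1.34 (SD, n = 11), and the log2 fold change was −0.21 (standard error 0.24). For very heavy drinkers against controls the log2 fold change was −0.42 (standard error 0.27), and neither passed (edgeR adjusted p = 1.0 for both).

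HTR2A (chromosome 17, 25277017 to 25342367) had the highest median CPM of the member receptors. Controls ran from 4.73 to 11.1 CPM, with a median of 7.31. The 5 heavy drinkers had 7.34, 7.91, 9.64, 11.0 and 12.8 CPM. Very heavy drinkers ran from 4.33 to 12.9 CPM with a median of 5.74, and very heavy 8, at 12.9, stood above the next of its category at 8.21. The 5 heavy drinkers thus lay at or above the median of all animals, 7.33 CPM, and the ranges of the 2 categories overlapped. Very heavy drinkers were 0.57 lower than heavy drinkers on the log2 scale (fold change −0.57, standard error 0.26), with an unadjusted p of 0.0385 and an adjusted p of 0.71 in edgeR. Of the heavy drinkers 4 of 5 belonged to cohort 1 and of the very heavy drinkers 6 of 9 to cohort 2. With cohort as a term the log2 fold change was −0.56 (standard error 0.29, unadjusted p = 0.0621 in edgeR, against 0.0271 with the DESeq2 Wald test and 0.0138 with limma-voom), and without heavy 2 it was −0.46 (standard error 0.28, unadjusted p = 0.117 in edgeR). In that comparison 6.80% of all genes tested had an unadjusted p under 0.05 and 0% passed adjustment. Over all drinkers the mean was 7.61 ± 2.79 CPM (SD, n = 17), against 7.82 ± 2.41 (SD, n = 11) in controls.

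HTR7 (chromosome 9, 90961706 to 91077603) ran from 2.55 to 6.24 CPM in controls (median 4.16) and from 1.63 to 7.19 CPM in very heavy drinkers (median 3.49). Heavy drinkers had 2.45, 2.58, 3.29, 6.41 and 11.7 CPM. The last value, from heavy 1 with 288 counts, was the highest of the 28 animals, while the other heavy drinkers fell within or next to the control range. Drinkers had a mean of 4.46 ± 2.41 CPM (SD, n = 17) and controls of 4.38 ± 1.34 (SD, n = 11), with a log2 fold change of 0.03 (standard error 0.24, edgeR adjusted p = 1.0). Without heavy 1 it was −0.13 (standard error 0.22), and for heavy drinkers against controls the log2 fold change went from 0.27 (standard error 0.34) to −0.24 (standard error 0.33).

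**Figure D1:**
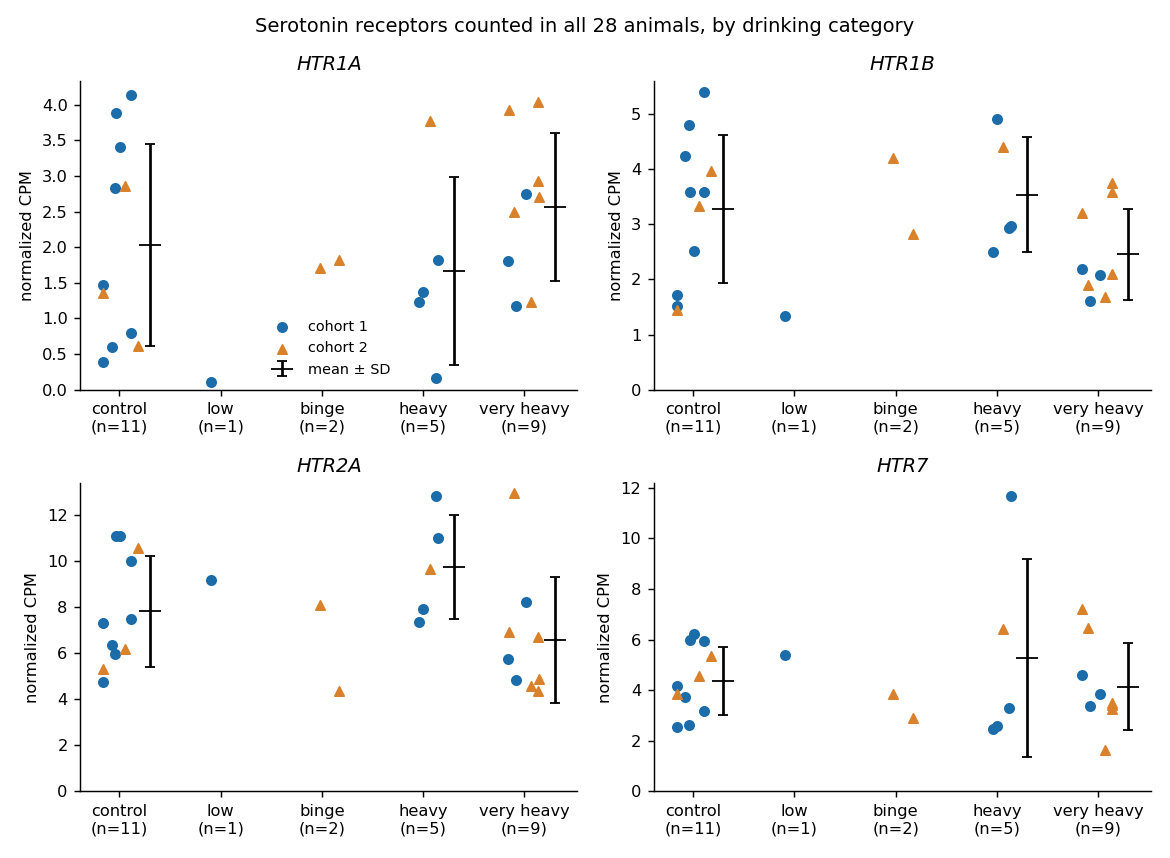
Normalized CPM of HTR1A, HTR1B, HTR2A and HTR7 (vertical axes, linear) in each of 28 animals by drinking category, with cohort 1 as blue circles, cohort 2 as orange triangles and the mean ± SD beside categories of 5 or more. The heavy drinkers of HTR2A start at 7.34 and most very heavy drinkers lie below, and heavy 1 stands alone at 11.7 for HTR7.

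HTR2C, a receptor found on neurons and very abundantly on the epithelium of the choroid plexus, had no count in 22 of the 28 animals. Its gene lies on chromosome X from 111272387 to 111434981. A count of 0 allows up to 3 counts of the 1 transcript listed, which is between 0.110 and 0.244 CPM without TMM scaling in these libraries. It does not bound the level of the gene. The 6 animals with counts were very heavy 1 with 557, control 7 with 156, binge 1 with 80, very heavy 5 with 23, binge 2 with 17 and very heavy 4 with 15, or 34.7, 6.57, 3.16, 1.27, 0.774 and 0.631 CPM. They came from both cohorts, 2 of 16 animals in cohort 1 and 4 of 12 in cohort 2, and from 5 of 17 drinkers and 1 of 11 controls. All 5 heavy drinkers, the low drinker and the 3 controls of cohort 2 were at 0. No fold change of HTR2C is read as a result, since a fit to so many zeros is set by the few animals above them. Its fitted values between cohorts are given below only to show that their sign turned, and its edgeR value enters the members' median. HTR2C did not pass in any of 7 comparisons, and its unadjusted p for very heavy against heavy drinkers was 0.0152 (adjusted p = 0.62, edgeR), where 6.80% of all genes were under 0.05. That unadjusted p was 0.239 with the DESeq2 Wald test, 0.139 with limma-voom and 0.0051 in edgeR with cohort as a term.

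The markers of the choroid plexus were set beside HTR2C. Of the list of choroid plexus markers, 5 were in the table, and their summed level ran from 9.27 to 56.4 CPM in the 6 animals with HTR2C counts (median 24.3) and from 11.9 to 735 CPM in the 22 without (median 67.3). Very heavy 1, the animal with the most HTR2C, ranked 20th of 28 for the sum, and control 7, the next, ranked 28th. TTR, the transthyretin of choroid plexus epithelium, was highest in very heavy 6 at 702 CPM, an animal with HTR2C at 0. The animals with HTR2C counts thus did not include those with the highest choroid plexus markers. The table holds 1 Ensembl transcript per symbol, and RefSeq lists 2 transcripts for HTR2C. Counts of other transcripts were not analysed here.

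**Figure D2:**
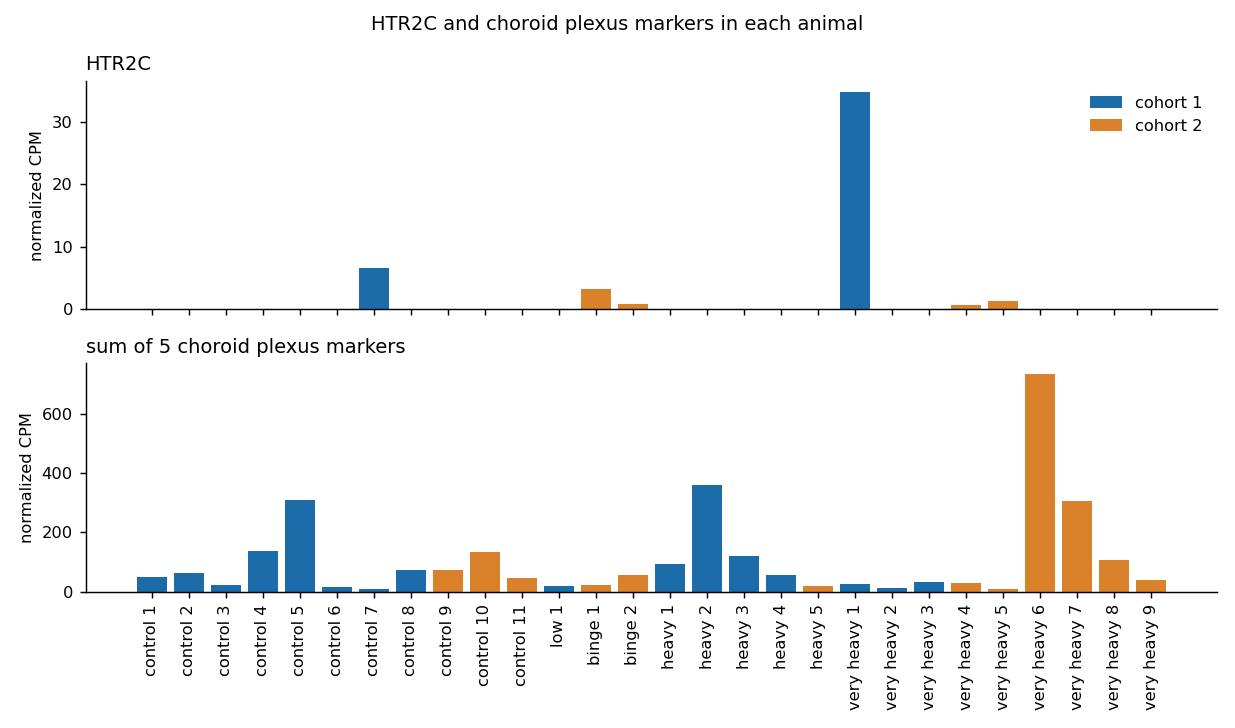
Normalized CPM of HTR2C (top) and the sum of 5 choroid plexus markers (bottom) in each of 28 animals, coloured by cohort, on linear axes. The tallest HTR2C bar, very heavy 1 at 34.7, stands over a low bar of choroid plexus markers, and the tallest marker bar, very heavy 6 at 735, stands under an HTR2C value of 0.

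HTR4, which signals through stimulatory G proteins, was at 0 in 27 animals and had 3 counts in heavy 5. Its gene spans 145974992 to 146149733 on chromosome 6. A value of 0 here belongs to 1 transcript of the gene and does not bound the expression of the gene by depth: SLC1A2, an abundant transporter of astrocytes, was at 0 in all 28 animals in the same data.

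The serotonin neuron genes came next. TPH2 (chromosome 11, 71510031 to 71600964) had between 0 and 172 counts, with a median of 6.5, and was at 0 in 4 animals, all of them drinkers (low 1, heavy 3, heavy 4 and very heavy 9). Controls ran from 0.0937 to 1.18 CPM, with a median of 0.397, and very heavy drinkers from 0 to 1.40, with a median of 0.731. The 5 heavy drinkers had 0, 0, 0.162, 0.269 and 6.89 CPM. The value of 6.89 belonged to heavy 2, which was 4.91-fold above the next animal of the series (very heavy 2, 1.40 CPM), 21.2-fold above the median of the other 27, and held 38.5% of all TPH2 counts.

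SLC6A4 (chromosome 16, 25856723 to 25896719) was at 0 in 23 animals. It had 88 counts in heavy 2 (3.53 CPM), 34 in control 5 (1.49 CPM), 4 in very heavy 9 and 1 each in very heavy 5 and very heavy 8. Heavy 2 alone held 68.8% of the SLC6A4 counts of the series and was thus highest for both TPH2 and SLC6A4. Control 5 was second for SLC6A4 and ranked 8th for TPH2, at 0.877 CPM, within the range of other animals. FEV (chromosome 12, 106414297 to 106418830) had 1 count, in very heavy 5, and was at 0 in the other 27, including heavy 2 and control 5. As for HTR4, a value of 0 for TPH2, SLC6A4 or FEV belongs to 1 transcript and does not show that the gene was silent.

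Because FEV belongs to the ETS factors, whose binding sites share the core GGAA, the 250 bases before the RefSeq start of SLC6A4 are printed, a gene whose counts came mostly from heavy 2 and control 5. The sequence lies on the minus strand of Mmul_10 at chr16:25896720-25896969 and is written 5′ to 3′ with the core in capitals on either strand (GGAA, or TTCC as its complement).
SLC6A4: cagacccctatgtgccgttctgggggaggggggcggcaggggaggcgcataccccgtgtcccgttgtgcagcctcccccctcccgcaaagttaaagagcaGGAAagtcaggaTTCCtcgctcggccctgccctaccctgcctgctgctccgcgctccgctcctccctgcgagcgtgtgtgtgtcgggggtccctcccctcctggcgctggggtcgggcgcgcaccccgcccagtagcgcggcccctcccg
It holds 2 matches, close to each other, and 71.6% of its bases are G or C. Of 20782 protein-coding genes, 89.7% have at least 1 match in the same window and 71.8% have at least 2, so the matches describe the sequence only.

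In the 2 punches with the most SLC6A4 counts, the genes of other cells were read as well. Heavy 2 and control 5 were both high in TH, at 712 and 826 CPM (second and highest of 28). In SLC6A3 they ranked 8 and 5, at 326 and 498 CPM. The other listed dopamine neuron markers were uneven. In heavy 2 and control 5, RET ranked 2 and 1, FOXA1 3 and 4, EN1 5 and 1 and PITX3 8 and 7. ALDH1A1 ranked 11 and 6, and NR4A2 ranked 23 (0 CPM) and 13 (0.263 CPM). Among the 13 genes listed for serotonin synthesis, transport and breakdown, some that serotonin and dopamine neurons share were high in both. The decarboxylase DDC was at 123 and 168 CPM and the vesicular transporter SLC18A2 at 92.3 and 151 CPM. GCH1, which makes the cofactor of both hydroxylases, was at 4.77 and 4.56 CPM, its highest values in the series. Others on that list were not high in both. QDPR was the lowest of 28 in heavy 2 (1351 CPM) and ranked 12 in control 5. PTS ranked 18 and 25, and MAOB ranked 2 in heavy 2 and was at 0 in control 5. Of 5 astrocyte markers in heavy 2, the filament GFAP was at 44.1 CPM, where the next animal had 9.29, whereas the transporter SLC1A3 ranked 19th at 43.9 CPM and AQP4, ALDH1L1 and SLC1A2 were at 0. Both were also high in TTR, at 338 and 296 CPM, and both were poor in HTR1A, as given above. The 3 punches with 1 to 4 SLC6A4 counts, very heavy 5, very heavy 8 and very heavy 9, had TH at 10.3, 38.5 and 137 CPM. The other punches with TH above 500 CPM, namely control 3, control 8 and control 10, had SLC6A4 at 0. The summed level of 8 dopamine neuron markers was 1219 CPM in heavy 2 and 1531 in control 5, within ranges of 31.9 to 1410 over drinkers and 31.8 to 1531 over controls. The sum over 3 GABA neuron markers was 132 CPM in heavy 2 and 111 in control 5. These were the lowest values of drinkers and controls, whose medians were 224 and 246. In heavy 2 and control 5, GAD1 ranked 25 and 28 and SLC32A1 26 and 27. GAD2, a small part of the sum, was not low in heavy 2 (4.81 CPM, rank 10) and ranked 18 in control 5 (3.07 CPM). The identity factors shared by serotonin neurons and other cells of this region did not rise together in heavy 2: LMX1B was second highest at 7.25 CPM, whereas GATA2 (5.21 CPM) ranked 27th and GATA3 (11.5 CPM) ranked 24th. The summed level of the 7 identity factors in the table was 58.0 CPM in heavy 2 and 51.5 in control 5, against a range of 51.5 to 98.0 over all animals. Of the 4 noradrenaline neuron markers, DBH had its highest level in heavy 2 (0.641 CPM, 16 counts) and 0 in control 5, and SLC6A2 was at 0 in all 28. Control 5 also had the highest oligodendrocyte sum of the 28 (20927 CPM) and the lowest glutamate neuron sum (43.9 CPM), while heavy 2 ranked 17 and 12 for these. The part of these marker levels in the TPH2 and SLC6A4 counts of heavy 2 was not tested.

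**Figure D3:**
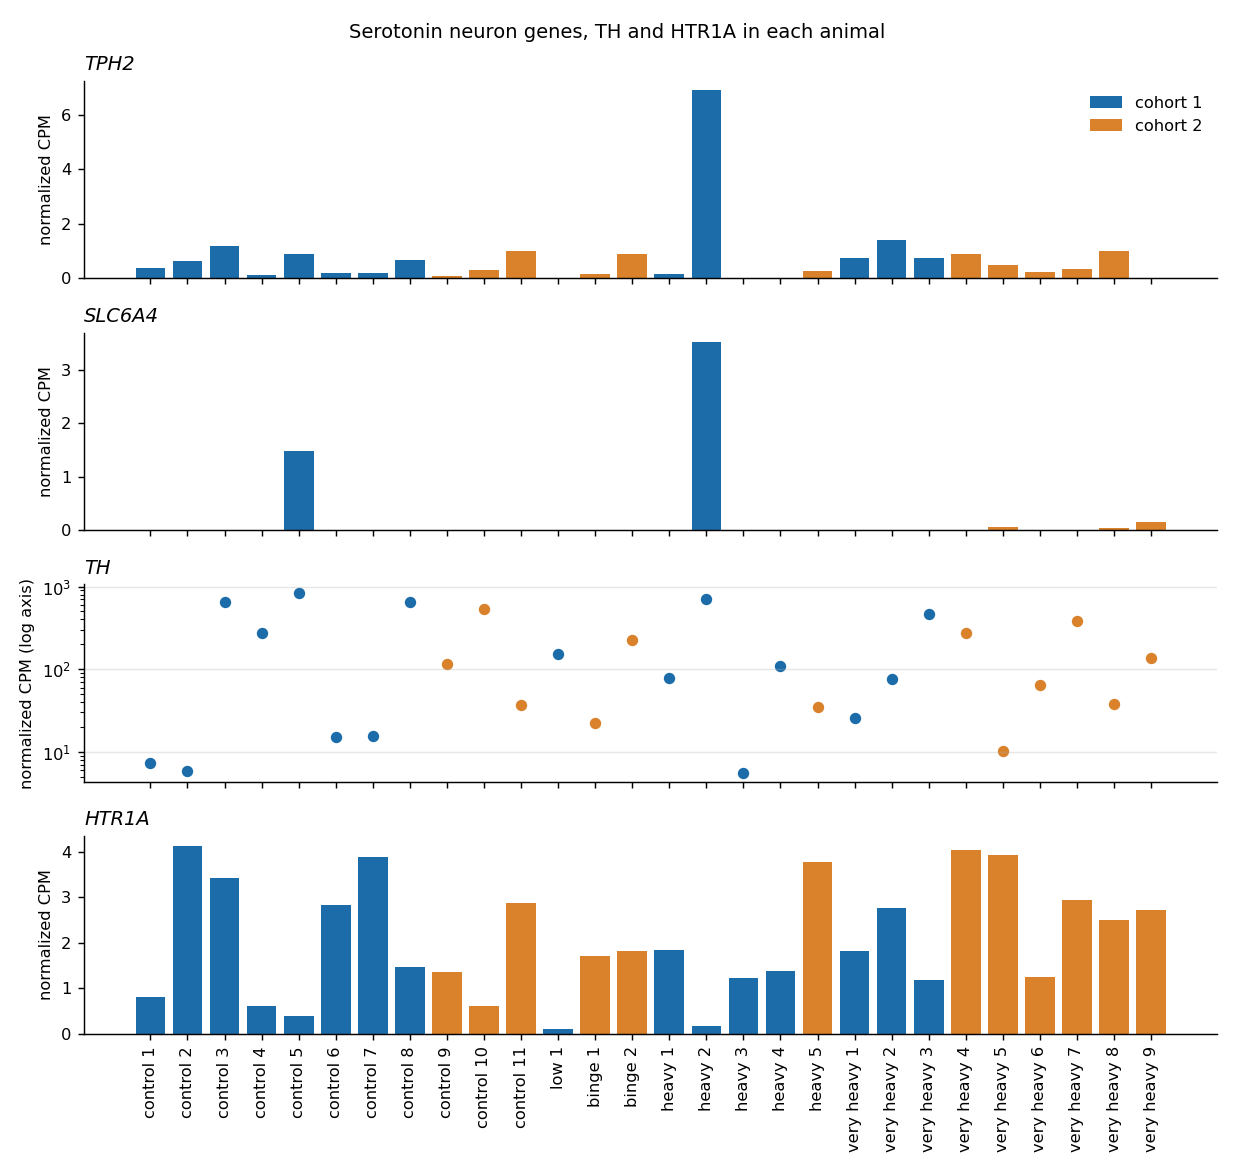
Normalized CPM of TPH2, SLC6A4, TH (log axis) and HTR1A in each of 28 animals, coloured by cohort. Heavy 2 is the tallest bar for TPH2 (6.89) and SLC6A4 (3.53), and both heavy 2 and control 5 are near the top for TH and near the bottom for HTR1A.

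The direction of TPH2 between groups turned with 1 animal and with the method. Drinkers averaged 0.837 ± 1.62 CPM (SD, n = 17), controls 0.515 ± 0.377 (SD, n = 11), and the log2 fold change was 0.70 (standard error 0.80, edgeR adjusted p = 1.0), which became −0.17 (standard error 0.71) without heavy 2. For heavy drinkers against controls it was 1.50 (standard error 0.99) with heavy 2 and −2.19 (standard error 1.08) without. Between very heavy and heavy drinkers the sign turned from −1.17 (standard error 1.05) to 2.52 (standard error 1.11), and between cohort 2 and cohort 1 the log2 fold change went from −0.95 (standard error 0.79) to 0.02 (standard error 0.75). With heavy 2 kept, limma-voom gave −0.53 for drinkers against controls, −1.18 for heavy drinkers against controls, 1.27 for very heavy against heavy drinkers and 0.12 between cohorts. In none of these fits did TPH2 pass, and the adjusted p without heavy 2 was 0.68 for heavy drinkers against controls and 0.72 for very heavy against heavy drinkers.

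None of the 6 tested genes passed an adjusted p of 0.05 in any of the 7 comparisons of drinking status, category and cohort, and the lowest adjusted p among them was 0.53, for HTR2C between the cohorts, where the fitted log2 difference turned from −3.39 in edgeR to 4.08 with the DESeq2 Wald test and 0.52 with limma-voom. In drinkers against controls 0% of the 13769 genes passed and 4.57% had an unadjusted p under 0.05, of which 0 were members. The unadjusted share was 4.62% for very heavy and 7.15% for heavy drinkers against controls, 0% passed in both, and 0 members were under 0.05 in either. For very heavy against heavy drinkers 2 of the 6 tested members, HTR2A and HTR2C, were under 0.05 in edgeR, beside 6.80% of all genes, and in each of the 3 alternatives given for them above, 1 of the 2 was not. In edgeR the members' median log2 fold change in drinkers against controls was 0.02, beside 0.0015 over all genes tested, with 4 members positive and 2 negative. The positive ones included HTR2C, set by few animals, and TPH2, which turned without heavy 2. With limma-voom HTR1A, HTR1B, HTR2A, HTR7 and TPH2 were all negative, so the count of signs rests on the method. For the 4 member receptors counted in every animal the standard errors were 0.19 to 0.44, so the interval of 2 standard errors reached from −0.43 to 0.35 for HTR2A, from −0.69 to 0.27 for HTR1B, from −0.46 to 0.51 for HTR7 and from −0.85 to 0.89 for HTR1A. A change of moderate size in HTR1A was therefore not detectable at this spread, and the values do not show that drinkers and controls were alike.

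By cohort, HTR1A showed the largest difference among the 4 member receptors counted throughout. Cohort 2 had 2.46 ± 1.13 CPM (SD, n = 12) and cohort 1 had 1.75 ± 1.30 (SD, n = 16), a log2 fold change of 0.61 (standard error 0.47) with drinking status as a term. Among drinkers, those of cohort 1 ran from 0.106 to 2.75 CPM with a median of 1.30, and those of cohort 2 from 1.23 to 4.04 with a median of 2.71. Among controls the order was the other way, with means of 2.19 ± 1.55 CPM (SD, n = 8) in cohort 1 and 1.61 ± 1.15 (SD, n = 3) in cohort 2. The ranges overlapped in each case, the cohort difference had an adjusted p of 0.77, and the difference between cohorts in the effect of drinking was 1.51 on the log2 scale (standard error 0.94, adjusted p = 0.68, edgeR; 1.12 to 2.22 with 1 of the 3 controls of cohort 2 left out). Of all genes tested, 0.0436% passed between cohorts and 0.0145% for the difference in effect, and 9.80% and 9.62% had an unadjusted p under 0.05, with 0 members among them in both.

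Within cohort 1, drinkers against controls gave log2 fold changes of −0.75 (standard error 0.65) for HTR1A, −0.41 (standard error 0.35) for HTR1B, 0.07 (standard error 0.24) for HTR2A and 0.11 (standard error 0.35) for HTR7. Adjusted p-values were 0.80 to 0.99 in edgeR, and 0.0363% of all genes passed, with 11.6% under an unadjusted p of 0.05 and 0 members among them. The remaining receptors differed little by cohort, with log2 fold changes of 0.10 for HTR1B, −0.22 for HTR2A and −0.04 for HTR7 and standard errors of 0.20 to 0.25. Cohort 2 has 3 controls and was given no fit of its own.

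**Figure D4:**
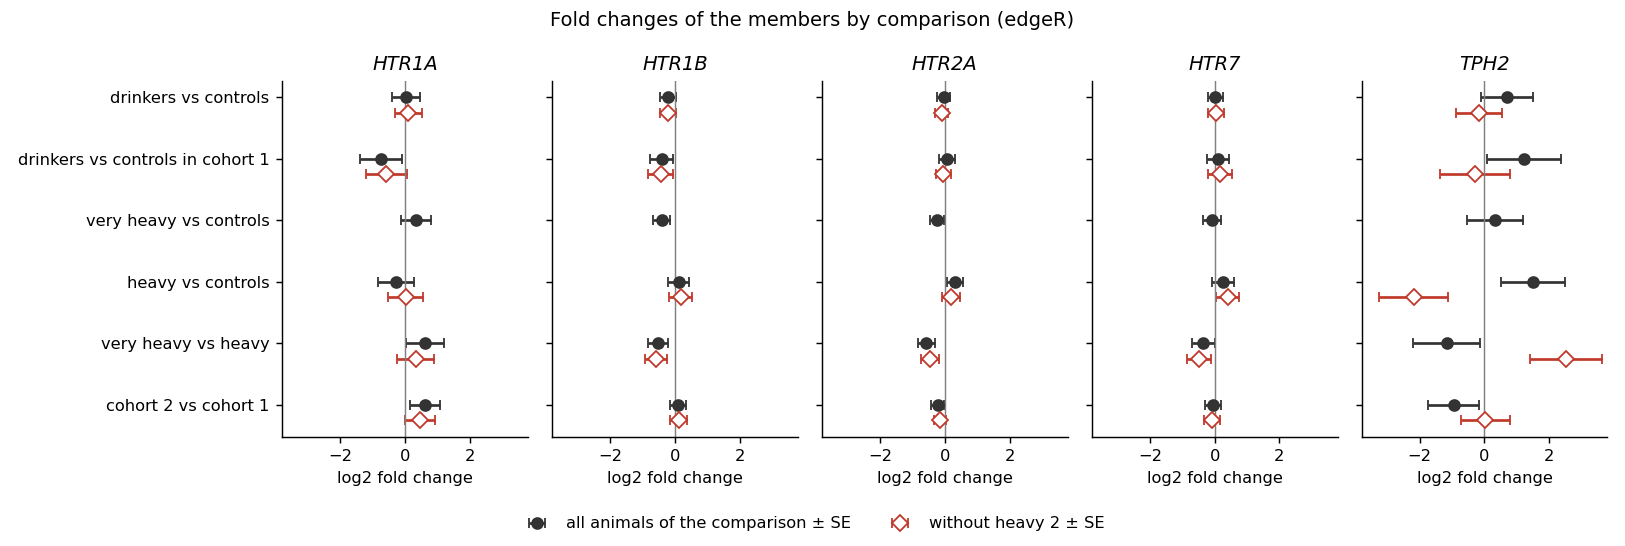
Log2 fold changes ± standard error (horizontal axes) of HTR1A, HTR1B, HTR2A, HTR7 and TPH2 in 6 comparisons, for all animals (black circles) and without heavy 2 (red diamonds; none where heavy 2 was not left out). TPH2 moves from 1.50 to −2.19 for heavy drinkers against controls without heavy 2, while HTR1A moves from −0.28 to 0.012 there and from 0.62 to 0.32 for very heavy against heavy drinkers.

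Other serotonin receptors were read from a list of 14 receptor genes that includes the 6 member receptors, out of 17 receptor symbols present. HTR3C, HTR3D and HTR3E were not on the list. Of the 14, 12 were tested, 5 of them members, and 0 passed in any comparison. Over the 12 the median log2 fold change between drinkers and controls was −0.01, beside 0.0015 over all genes. HTR5A, an inhibitory receptor found mainly in brain, was at 4.83 ± 1.55 CPM (SD, n = 17) in drinkers against 4.59 ± 2.50 (SD, n = 11) in controls, HTR1E at 2.62 ± 2.55 and 2.72 ± 1.73, HTR1F at 0.446 ± 0.334 and 0.329 ± 0.15, and HTR2B at 0.701 ± 0.536 and 0.405 ± 0.246. Lower unadjusted p-values were found for HTR6, with 1.43 ± 0.581 CPM in drinkers and 2.16 ± 0.540 in controls (log2 fold change −0.59, standard error 0.24, unadjusted p = 0.0198), and for HTR1D, with 0.907 ± 0.757 and 1.95 ± 1.68 (−1.10, standard error 0.52, unadjusted p = 0.0419). Both had an adjusted p of 1.0 in edgeR, and 2 of the 12 had an unadjusted p under 0.05, beside 4.57% of all genes. Of the ion channel subunits, HTR3A was at 0 in 25 animals and HTR3B was at 0 in all 28.

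Of 13 genes for the synthesis, transport and breakdown of serotonin, 12 were tested and 0 passed in any comparison, with a median log2 fold change of 0.06 between drinkers and controls. Of the 7 identity factors measured, 6 were tested and 0 passed. GATA2 (12.7 CPM), GATA3 (24.1), FOXA2 (11.6), LMX1B (1.88) and INSM1 (0.984), given as medians over 28 animals, were counted in most animals, unlike FEV. These factors also serve GABA and dopamine neurons and their precursors, and the median log2 fold change of the 6 tested between drinkers and controls was −0.14.

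The members were also compared with each other and with TH and SLC6A3 across the 28 animals, on log2 CPM, in 27 pairs. After Benjamini-Hochberg adjustment over the 27, 0 pairs passed. The closest was HTR2A with HTR7 (Pearson's r = 0.52, permutation p = 0.00404, adjusted p = 0.11, and Spearman's rho = 0.47, permutation p = 0.0120, adjusted p = 0.32). It was 0.57 without the 2 animals farthest from the median of HTR2A, and 0.38 within cohort 1 (n = 16, permutation p = 0.15) and 0.74 within cohort 2 (n = 12, permutation p = 0.00567). Without heavy 2, which had the second highest HTR2A (12.8 CPM) and 3.29 CPM of HTR7, r was 0.59 and the pair passed (adjusted p = 0.030 by permutation test), while Spearman's rho did not (adjusted p = 0.10). All 28 points share the library's depth and cell makeup between the members of a pair.

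Next came the receptors with the dopamine markers. HTR1A ran against TH with r = −0.40 (permutation p = 0.0344, adjusted p = 0.39) and rho = −0.37 (permutation p = 0.0540), and HTR1B with r = −0.38 (permutation p = 0.0472, adjusted p = 0.39) and rho = −0.36 (permutation p = 0.0626). For HTR1A and TH r was −0.32 without heavy 2 (permutation p = 0.0982), −0.34 without the 2 farthest animals, −0.44 within cohort 1 and −0.38 within cohort 2. For HTR1B and TH r was −0.40 without heavy 2 (permutation p = 0.0407), −0.38 without the 2 farthest animals, −0.52 within cohort 1 and −0.06 within cohort 2. With SLC6A3 the same receptors had r = −0.34 (HTR1A, permutation p = 0.0738) and r = −0.33 (HTR1B, permutation p = 0.0835), and within cohort 2 these were −0.27 and 0.02. TPH2 and TH had r = 0.29 (permutation p = 0.130, adjusted p = 0.39). Their rho was 0.30 (permutation p = 0.125), and r was 0.19 without heavy 2, 0.41 within cohort 1 and −0.06 within cohort 2. Pairs with HTR2C rest on 6 animals above 0 and are not given.

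**Figure D5:**
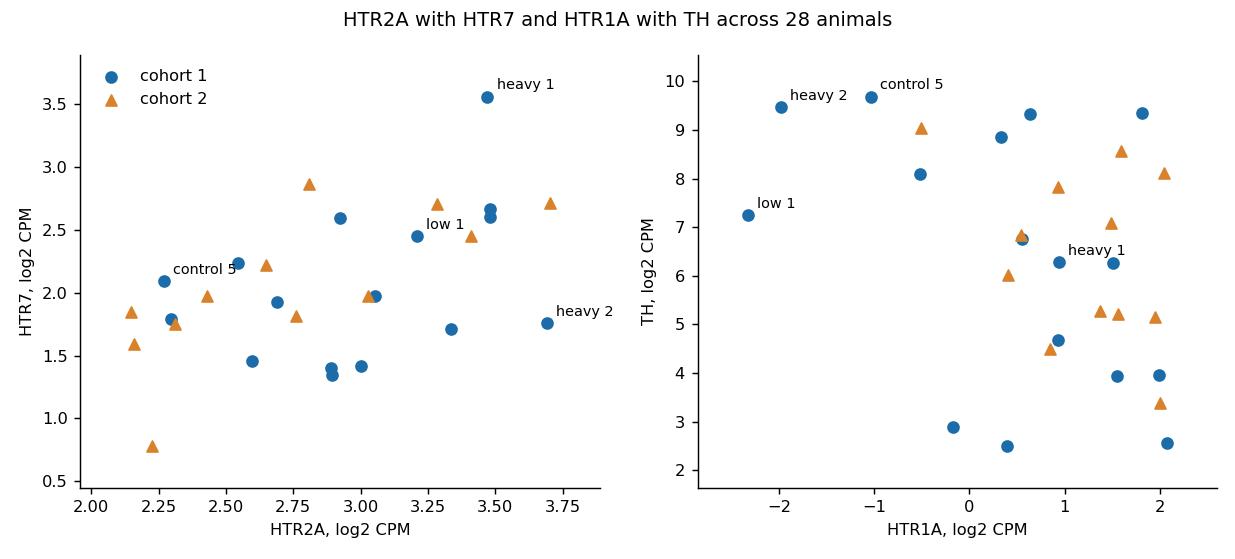
Log2 CPM of HTR7 against HTR2A (left) and of TH against HTR1A (right) in 28 animals, with cohort 1 as blue circles and cohort 2 as orange triangles. HTR2A and HTR7 rise together with r = 0.52 while heavy 2 lies apart at the lower right, and heavy 2, control 5 and low 1 hold the lowest HTR1A values.

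The genes whose levels ran most like each member were ranked by Spearman's rho over 28 animals, among 10995 tested genes with counts in at least 20. HTR7 had the closest partners, GPR176 (rho = 0.81), TBC1D22B (0.80), CNTN5 (0.74), ANKRD34C (0.72) and AZIN2 (0.71). For HTR1B they were RTN3 (0.80), OSBP (0.77), FAM168B (0.70), DENND2C (0.69) and TRIM66 (0.64), and for HTR2A they were MINAR1 (0.74), CHN1 (0.74), FRMPD4 (0.73), KCNA2 (0.72) and ASAH2 (0.71). HTR1A was most like PCDH19 (0.70), TMEM121B (0.68), CST6 (0.66), SPIN1 (0.65) and ZFHX2 (0.64). TPH2 had weaker partners, CREB3L3 (0.61), SETMAR (0.59), TSTD1 (0.59), ARHGAP12 (0.58) and GNL2 (0.58). HTR2C, at 0 in 22 animals, had ZNF607 (0.66), ARC (0.65), UBL7 (0.63) and NASP (0.62), values that rest on the 6 animals with counts. These are descriptions of 28 punches that differ in cell makeup, picked as the highest of 10995 values for each member.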

How the data were processed

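RNA from 28 VTA punches was prepared with a poly(A) kit (Nugen Universal Plus mRNA) and, per the labels and the methods of the study, the authors trimmed reads with Trim Galore 0.6.7, quantified them with Salmon 1.9.0 against Mmul_10, and deposited estimated counts without normalization. Each gene symbol carries 1 Ensembl transcript and its value leaves out any others, and 1 entry without a symbol (1.16e-05% of counts) was left out. Groups came from the sample labels and cohorts from the study's source data. Whether counting used strand is not given in the sources used here. Nothing in the labels ties animals of different groups, and p-values measure the spread between animals.

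Estimated counts were rounded, and genes that reached 5 counts in 3 or more animals were tested with edgeR 4.0.16 (TMM, quasi-likelihood, Benjamini-Hochberg over 13769 genes, R 4.3.3). The standard error is the size of the log2 fold change divided by the square root of F. Log2 CPM used a prior count of 2, and two-sided permutation tests drew 100000 resamples. Alternatives were DESeq2 1.42.0 (size factors, Wald test), limma 3.58.1 (voom), no filter, at least 10 counts in every animal, cohort as a term and single animals left out. The scripts were tested on simulated data. Coordinates and sequence came from RefSeq on Mmul_10. Depth limits the precision, and the floor of 3 counts covers counting error only.

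The members and lists were chosen with earlier results of these data known. Named genes are the 9 members, the other serotonin receptors and identity factors that passed the filter, TH and SLC6A3, markers of a list a member moved with, and the 5 genes most like each member. HTR3B, TTR, DBH, SLC6A2, DDC, SLC18A2, GCH1, QDPR, PTS, MAOB and the astrocyte markers were added once their values were known. So were the GABA neuron markers and the dopamine neuron markers other than TH and SLC6A3. Marker lists for dopamine, noradrenaline, GABA, glutamate and cholinergic neurons, choroid plexus, oligodendrocytes, astrocytes, microglia, endothelial cells and blood were compared as well, and 0 of their genes passed in any comparison. NKX2-2 was not analysed here. Of the named genes, 2 are not reported here. Python 3.11.15 with numpy 2.4.6, pandas 2.3.3, scipy 1.17.1 and matplotlib was used for the rest.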

Additional observations from a re-analysis of the deposited data

Results flagged for a closer look

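Within groups of 4 to 10 animals, the highest and the lowest normalized CPM of each member were set against the gap to the nearest other animal. Over 34 such groups (68 ends) 14 values stood apart, and chance flags about 1 in 20 groups. That rate does not apply to HTR2C and SLC6A4: in 5 of the 14 all other animals of the group were at 0, where any count stands apart by construction. Highest values far from the rest of their group were found for 6 members, and no lowest value was.

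TPH2 in heavy 2 (6.89 CPM) stood apart from the other heavy drinkers, the next of which had 0.269, and from the other drinkers of cohort 1, the next of which had 1.40. SLC6A4 in heavy 2 (3.53 CPM) stood apart in the same 2 groups, all other animals of which were at 0. SLC6A4 in control 5 (1.49 CPM) stood apart from the other controls of cohort 1, all at 0. SLC6A4 in very heavy 9 (0.159 CPM, 4 counts) stood apart from the other very heavy drinkers and the other drinkers of cohort 2, but the nearest value, 0.0553, was a single count.

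HTR2C in very heavy 1 (34.7 CPM) stood apart from the other very heavy drinkers and from the other drinkers of cohort 1, in control 7 (6.57 CPM) from the other controls of cohort 1, and in binge 1 (3.16 CPM) from the other drinkers of cohort 2. HTR7 in heavy 1 (11.7 CPM, next 5.37) and HTR1B in heavy 4 (4.90 CPM, next 2.96) stood apart from the other drinkers of cohort 1. HTR2A in very heavy 8 (12.9 CPM, next 8.21) stood apart from the other very heavy drinkers. None of the 6 tested members passed the test of a difference between cohorts in the effect of drinking. With 3 controls in cohort 2 that test could not show that the effects were alike, and HTR4, SLC6A4 and FEV did not enter it.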

How the results depend on the processing

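HTR1A, HTR1B, HTR2A, HTR7 and TPH2 did not pass an adjusted p of 0.05 under any alternative run that gave one, the lowest being 0.48. HTR2C did not pass with the DESeq2 Wald test where that gave an adjusted p, limma-voom or cohort as a term, and was not read with animals left out. Leaving out 1 animal at a time turned the sign of 39 of 240 fold changes, and other settings turned 11 of 181. Between drinkers and controls every animal was left out in turn, and in the other comparisons only animals of the smaller groups or those that stood apart. With limma-voom, log2 fold changes of the opposite sign were −0.0081 for HTR1A, −0.074 for HTR7 and −0.53 for TPH2 in drinkers against controls, 0.013 for HTR7 and 0.12 for TPH2 between cohorts, −0.83 for TPH2 within cohort 1, 0.75 for the difference in effect, −1.18 for heavy drinkers against controls and 1.27 for very heavy against heavy drinkers. With cohort as a term, drinkers against controls gave −0.26 for HTR1A and 0.012 for HTR2A.

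With single animals left out, drinkers against controls ranged from −0.094 to 0.17 for HTR1A, −0.10 to 0.024 for HTR2A, −0.13 to 0.088 for HTR7 and −0.17 to 0.90 for TPH2. Heavy drinkers against controls ranged from −0.82 to 0.012 for HTR1A, −0.037 to 0.21 for HTR1B, −0.24 to 0.45 for HTR7 and −2.19 to 1.82 for TPH2, and very heavy against heavy drinkers from −0.53 to 0.16 for HTR7 and −1.49 to 2.52 for TPH2. Within cohort 1 the ranges were −0.049 to 0.0036 for HTR2A, −0.24 to 0.17 for HTR7 and −0.30 to 1.39 for TPH2, TPH2 between cohorts ranged from −0.92 to 0.022, and the difference in effect ranged from −0.34 to 0.20 for HTR2A and −1.66 to 0.015 for TPH2. The cause was not tested.

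Over all genes, edgeR's 6 calls between cohorts became 3 with DESeq2 size factors, 23 with limma-voom and 10 with at least 10 counts in every animal (5 to 7 with single animals left out). The 5 calls within cohort 1 became 3 with limma-voom or no filter and 2 with the stricter one (1 to 4), and the 2 for the difference in effect ranged from 0 to 4. The DESeq2 Wald test called 11 for drinkers against controls, 121 between cohorts, 234 within cohort 1, 152 for the difference in effect, 22 for very heavy and 48 for heavy drinkers against controls, and 54 between these categories. Correlated pairs went from 0 to 1 without heavy 2. As CPM of nuclear-encoded counts, medians were 3.58 for HTR1A, 5.84 for HTR1B, 14.1 for HTR2A and 7.35 for HTR7. Leave-outs of heavy 1, heavy 2 and control 5 were in part chosen after seeing the data. No paired analysis was possible because the labels give no number that ties animals of different groups. The study reports that its caloric controls were yoked to drinkers, but the labels do not say which animals formed these pairs.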
